A study of Mus musculus with 8 samples.

Results

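The genes described here are those that the mouse array names as translation initiation factors. The rule takes them by name: of 41174 probes for genes, 120 carried a name in the scanner files that began with Eif and a number from 1 to 6. The members were chosen with earlier results of these data known. These probes stood for 51 genes, which make up 4 genes named Eif1, 18 named Eif2, 12 named Eif3, 13 named Eif4 and 4 named Eif5. The rule found 0 probes under the name Eif6. The name is not the same as the function for every member. The 4 genes filed as Eif2c1 to Eif2c4 are the Argonautes Ago1, Ago2, Ago3 and Ago4, which carry small regulatory RNAs and are not initiation factors. The gene filed as Eif1ay is now named Eif1ax, and the 12 genes filed as Eif3s with a number are subunits of eIF3 under old names.

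V6.5 mouse embryonic stem cells (strain C57BL/6 129SV mixed), depleted of feeder cells, were differentiated over 12 days into primordial germ cells in vitro, per the labels. The germ-cell protein DAZL, which binds RNA, bore both a GFP and a V5 tag in all groups, so no group lacked the tagged protein. RNA was recovered by immunoprecipitation (IP) from lysates that had not been crosslinked. Of the 4 groups, each with 2 one-colour arrays, input was total RNA with no antibody, mock IP used normal mouse IgG, and V5 IP and GFP IP used antibodies to the respective tags. Each comparison asked which transcripts were more or less abundant in a precipitate, relative to the other RNA on the same array, than in the mock IP or in the input.

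Initiation factors bring the small ribosomal subunit, the initiator tRNA and an mRNA together at a start codon. eIF1, eIF1A, eIF2 and eIF3 build the preinitiation complex, the eIF4 proteins attach it to the capped mRNA, and eIF5 and eIF5B act at start codon selection and joining of the large subunit. eIF2 is the step that cells slow under stress, through kinases that phosphorylate its alpha subunit and so block its exchange factor eIF2B. DAZL is known to bind mRNAs of germ cells and to act on their translation.

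Levels are the log2 of the processed intensity minus the 75th percentile of its array, so 0 is the intensity of a bright probe on that array and levels of different probes cannot be set against each other. A fold below is the log2 difference between group means, with the standard error (SE) of the model. All 51 genes passed the filter on dim probes, and 50 of them were well above background on all 8 arrays. The exception was Eif2b3, an eIF2B subunit, whose probe was well above background on 1 of 2 mock and 1 of 2 V5 arrays. The 75th percentile of intensity was 352 on mock array 1, the lowest of the 8, against 641 to 1130 on the other arrays, and 61.3% to 70.5% of probes were well above background. Array 1 of every group lay on one slide and array 2 on another. By the file headers each group held the same position on both slides: mock IP 1, V5 IP 2, GFP IP 3 and input 4. A difference between groups therefore cannot be told apart from a difference between positions. All 8 germ-cell markers and all 5 pluripotency markers examined were well above background on all arrays, and so were all 5 fibroblast markers. Dazl itself rose in V5 IP by 2.63 and in GFP IP by 2.71 on the log2 scale over mock IP, with limma adjusted p = 0.005 and 0.00394. The labels do not say whether the 2 arrays of a group came from separate cultures, so the p-values reflect only how far these arrays differ, which may be technical.

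In V5 IP against mock IP, 11 of the 51 genes were higher and 14 were lower at an adjusted p under 0.05. Over all 19032 genes tested, 14.6% were higher and 21.4% were lower. In GFP IP against mock IP, 11 were higher and 16 lower, against 16.3% and 26.5% of all genes. As shares of the 51 genes, 21.6% were higher and 27.5% lower with the V5 antibody, and 21.6% and 31.4% with the GFP antibody. Both arrays of V5 IP lay above both mock arrays for 15 Eif genes and below them for 20, which held for 22.3% and 47.2% of all genes. For GFP IP these were 15 and 21 Eif genes, and 23.8% and 48.2% of all genes. The Eif genes had a median log2 fold change of -0.22 in V5 IP and -0.14 for GFP IP, while all genes together had -0.44 in both. The genes called higher were Eif1a, Eif1b, Eif2s3x, Ago2, Ago4, Eif3a, Eif4a2, Eif4e, Eif4g2, Eif5 and Eif5a2 in each of these comparisons, which share the mock arrays. These folds compare RNA recovered from bulk lysates and measure neither the number of cells of a type nor the RNA per cell.

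**Figure D1:**
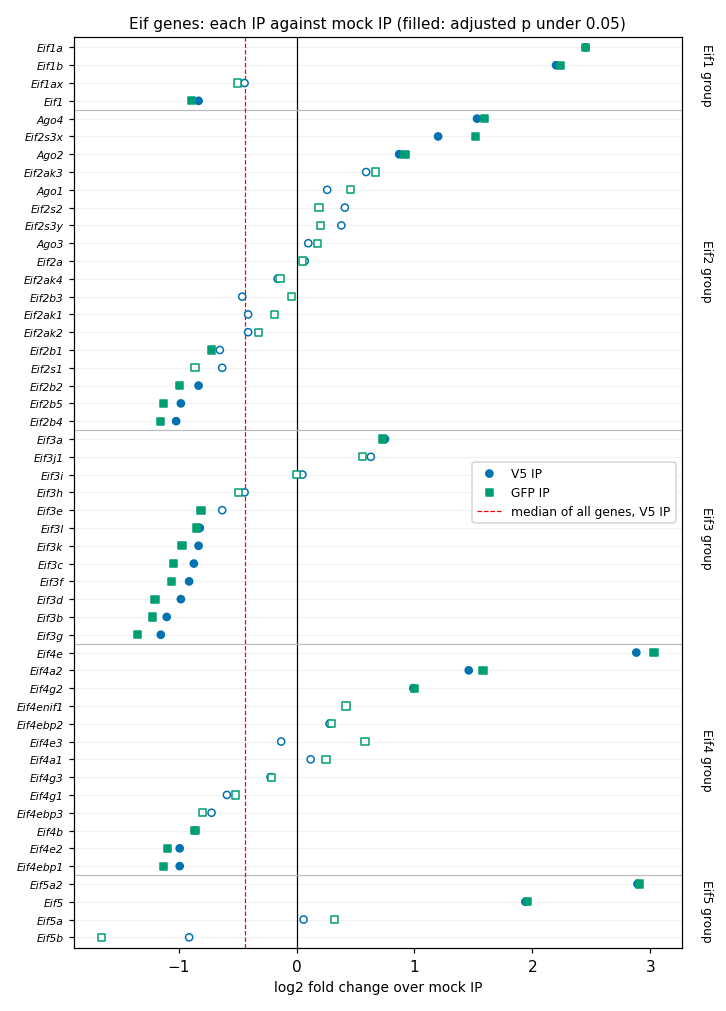
Log2 fold change over mock IP (x axis) of the 51 Eif genes, ordered within each factor group by the mean of both IPs. Circles are V5 IP, squares are GFP IP, filled symbols passed an adjusted p under 0.05, and the dashed line is the median of all genes in V5 IP, -0.44. By the mean of both IPs, the called genes on the right run from Eif3a at 0.75 and 0.73 to Eif4e at 2.88 and 3.03, and most eIF3 and eIF2B subunits lie to the left of the line.

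The counts moved with single arrays and with the centring. The share of all genes called is given below only for the slide block. Changes of a count under the other settings therefore cannot be read as particular to the Eif genes. Without mock array 1, V5 IP had 5 genes higher and 0 lower, and GFP IP had 6 higher and 2 lower. V5 IP had 4 higher and 0 lower without V5 array 1, 6 and 0 without either input array, 8 and 4 without V5 array 2, and 8 and 7 without either GFP array, since all arrays share 1 estimate of the spread. GFP IP had 4 and 0 without GFP array 1, and 8 and 7 without GFP array 2. When the arrays were centred at the tested genes' median, the V5 counts were 11 higher and 3 lower, and the GFP counts 12 and 10. Eif1a, Eif4e, Eif5 and Eif5a2 were called higher in both IPs with any 1 of the 8 arrays left out and under all 8 other settings tried. No lower call against mock IP was kept with every array left out in turn. The slide 1 difference was larger in size than the slide 2 difference for 47 of 51 genes in V5 IP and for 46 of 51 in GFP IP against mock IP, and mock array 1 is on slide 1. What the slide or that array contributed was not tested. With the slide as a block, Eif2ak3 and Eif3j1 were also called higher in V5 IP, and Eif2b1, Eif3e, Eif4ebp3 and Eif5b lower. In GFP IP the block added Eif2ak3 to the higher genes and Eif2s1, Eif4ebp3 and Eif5b to the lower ones. Such gains were not particular to the Eif genes. Across the 19032 tested genes, lower calls rose from 4065 to 7311 in V5 IP and from 5043 to 7645 for GFP IP. Higher calls there rose from 2776 to 3693 and from 3102 to 3969. For the 51 Eif genes, lower calls rose from 14 to 18 and from 16 to 19. Their higher calls rose from 11 to 13 and from 11 to 12.

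Eif1b and Eif1a led the first group. eIF1 and eIF1A scan the mRNA with the small subunit and guard the choice of start codon. Eif1b encodes a close relative of eIF1. Its level was 3.44 and 2.71 in input, 4.71 and 4.51 in mock IP, and 7.25 and 6.37 in V5 IP, with 7.25 and 6.47 in GFP IP. All 4 arrays of the tagged IPs lay above both mock arrays, and both mock arrays lay above both input arrays. The log2 fold change over mock IP was 2.20 ± 0.42 (SE) in V5 IP and 2.24 ± 0.42 for GFP IP (limma adjusted p = 0.0126 and 0.00927). Over input it was 3.74 and 3.78 (adjusted p = 0.00225 and 0.00181), and mock IP over input was 1.54 (adjusted p = 0.0551), which was called with the slide as a block. Eif1b thus also had a high level in the IgG control, and its value over mock IP was smaller than its value over input. Without mock array 1, the fold over mock IP was 2.30 and 2.34 and neither passed the threshold. Without V5 array 1 the V5 fold was 1.76, and without GFP array 1 the GFP fold was 1.85. Neither of these passed. Only 1 probe measured Eif1b.

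Eif1 itself had the opposite sign. Its level was 6.17 and 6.12 in input, 7.17 and 6.72 in mock IP, and 6.07 and 6.16 in V5 IP, with 6.04 and 6.08 in GFP IP. The mock arrays were the high ones and the tagged IPs lay at the level of input. Relative to mock IP, this gave a log2 fold of -0.83 ± 0.24 in V5 IP (limma adjusted p = 0.0347) and -0.89 ± 0.24 in GFP IP (adjusted p = 0.0239). Against input it was -0.03 and -0.09, which did not pass the test. In V5 IP the call over mock IP was lost without any 1 array other than mock array 2, and the GFP call without either input array, mock array 1 or either GFP array.

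Eif1a, which encodes one form of eIF1A, had levels of 3.29 and 3.25 in input, 2.31 and 3.13 in mock IP, and 5.43 and 4.92 in V5 IP, with 5.30 and 5.05 in GFP IP. Both tagged IPs lay above all input and mock arrays. Against mock IP its log2 fold was 2.45 ± 0.33 in each IP (limma adjusted p = 0.0037 and 0.00329), and over input it was 1.90 in each (adjusted p = 0.00679 and 0.0057). Its other 2 probes gave 2.68 and 2.56 in V5 IP. The levels of Eif1ax, the X-linked form, were 4.58 and 4.48 in input, 3.59 and 3.40 in mock IP, and 3.01 and 3.11 in V5 IP, with 2.98 and 3.01 in GFP IP. This probe was highest in input, and its fold over mock IP of -0.44 and -0.50 did not pass the test. The dimmer probe of Eif1ax went the other way, at 2.14 in V5 IP and 2.47 for GFP IP. The brighter probe therefore does not settle the direction of Eif1ax.

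**Figure D2:**
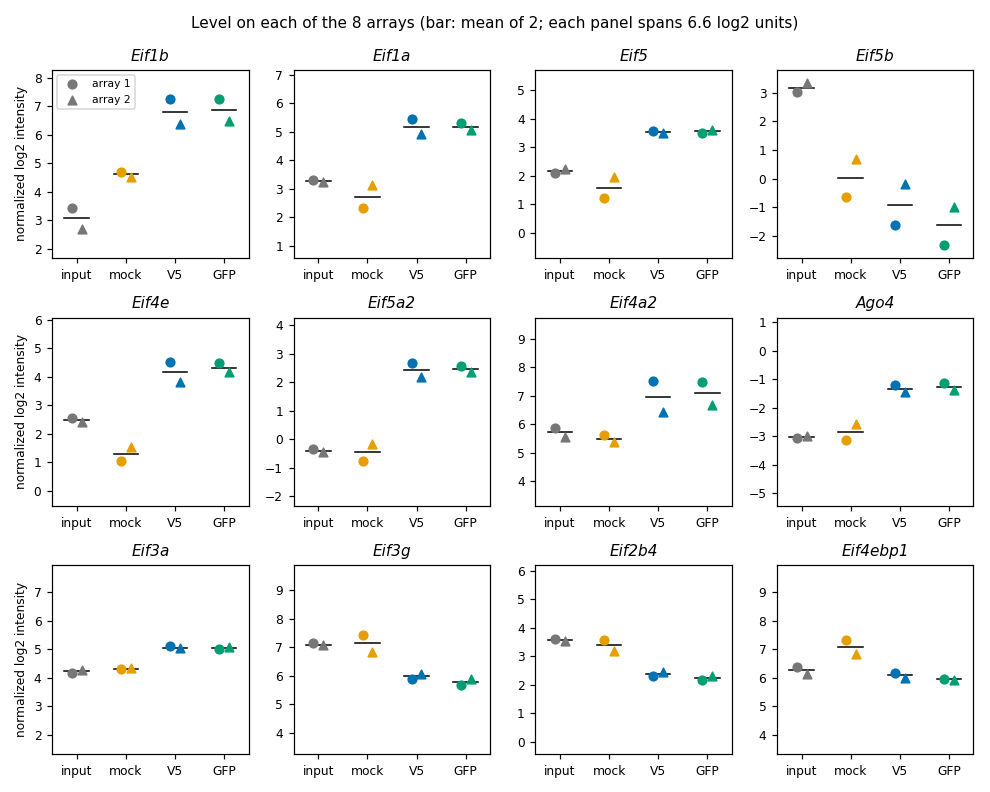
Normalized log2 intensity (y axis) of 12 Eif genes on the 8 arrays, with the 4 groups on the x axis. Circles are array 1 and triangles array 2 of each group, bars are the means of the 2 arrays, and every panel spans the same range. Eif1b steps up from input to mock IP to the tagged IPs, Eif5a2 and Ago4 are high in the tagged IPs only, and Eif5b is low in all IPs including mock.

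The eIF2 complex delivers the initiator tRNA, and its gamma subunit is encoded on both sex chromosomes of the mouse, by Eif2s3x and Eif2s3y. The levels of Eif2s3x were 3.12 and 3.13 in input, 3.07 and 3.32 in mock IP, and 4.61 and 4.17 in V5 IP, with 4.92 and 4.50 in GFP IP. The tagged IPs were high and did not overlap with mock IP or input. Its difference from mock IP was 1.20 ± 0.27 in V5 IP (limma adjusted p = 0.0205) and 1.52 ± 0.27 in GFP IP (adjusted p = 0.00812). Its other 2 kept probes gave 0.31 and 0.00 in V5 IP and 0.20 and 0.08 for GFP IP, so the result rests on 1 of 3 probes. Those 2 probes were lower than input, at -1.12 and -1.11 in V5 IP. Significance in V5 IP was lost without V5 array 1, mock array 1 or either input array, and the GFP call without GFP array 1.

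The levels of Eif2s3y were 2.10 and 2.06 in input, 0.05 and 1.01 in mock IP, and 0.73 and 1.10 in V5 IP, with 0.53 and 0.93 in GFP IP. All IPs were below input, and the tagged IPs overlapped with mock IP. The difference between V5 IP and mock IP was 0.38 and did not pass. Eif2s1 and Eif2s2, for the alpha and beta subunits, were not called against mock IP either, at -0.63 and 0.41 in V5 IP and -0.86 and 0.19 for GFP IP. Against input, Eif2s1, Eif2s2 and Eif2s3y were lower in both tagged IPs, at -1.67, -1.61 and -1.16 in V5 IP.

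None of the 5 subunits of eIF2B, which recharges eIF2 with GTP, was higher in a tagged IP. In V5 IP against mock IP, 3 of 5 were lower, and in GFP IP 4 of 5, with medians of -0.83 and -0.99. Of all genes 21.4% and 26.5% were lower, with a median of -0.44. The lowest was Eif2b4, the delta subunit, with levels of 3.60 and 3.53 in input, 3.58 and 3.18 in mock IP, and 2.29 and 2.43 in V5 IP, with 2.16 and 2.30 in GFP IP. Input and mock IP overlapped, and both tagged IPs lay below them. Over mock IP, the log2 fold was -1.02 ± 0.24 in V5 IP and -1.15 ± 0.24 for GFP IP (limma adjusted p = 0.0224 and 0.0123). The V5 call was lost without V5 array 1, mock array 1 or either input array, and the GFP call without GFP array 1.

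By their brightest probes, the 4 kinases of eIF2 alpha, Eif2ak1, Eif2ak2, Eif2ak3 and Eif2ak4, had 0 calls in every comparison by limma without a block. A dimmer probe of Eif2ak4, well above background on all arrays, was called lower than input, at -0.85 in V5 IP and -0.89 in GFP IP. A dimmer probe of Eif2ak1, well above background on 2 arrays, was called lower than input in GFP IP, at -1.11. Eif2ak3, the kinase of the endoplasmic reticulum known as PERK, had the lowest p of the 4 over mock IP, at 0.59 in V5 IP and 0.67 for GFP IP over mock IP, with unadjusted p = 0.0424 and 0.0258. Over input, Eif2ak4, the kinase known as GCN2 that senses amino acid shortage, was at -1.29 and -1.27, with unadjusted p = 0.0192 and 0.0208. With the slide as a block Eif2ak3 was called higher than mock IP in both, and Eif2ak4 was called lower than input in all 3 IPs. Eif2a, an initiator tRNA carrier separate from eIF2, was not called between tagged IPs and mock IP (0.07 and 0.05). It was lower than input in mock IP, V5 IP and GFP IP, at -2.11, -2.04 and -2.07.

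Among the Argonautes, 2 of 4 were higher than mock IP in both tagged IPs by their brightest probes. Of all genes, 14.6% were higher in V5 IP and 16.3% in GFP IP. Ago4 had levels of -3.05 and -2.99 in input, -3.14 and -2.57 in mock IP, and -1.20 and -1.46 in V5 IP, with -1.14 and -1.39 in GFP IP. These were low levels, and the tagged IPs did not overlap with either control. Relative to mock IP, this gave a log2 fold of 1.53 ± 0.27 in V5 IP and 1.59 ± 0.27 for GFP IP (limma adjusted p = 0.00991 and 0.00709). The 5 probes of Ago4 disagreed: 2 others gave 1.43 and 1.57 in V5 IP, and the remaining 2 gave -0.30 and -1.05. With the mean of all kept probes the folds were 0.63 and 0.56 and neither was called. Significance in V5 IP was also lost without V5 array 1, and the GFP call without GFP array 1. Ago2, the slicing Argonaute, had levels of 0.43 and 0.72 in input, 0.39 and 1.10 in mock IP, and 1.57 and 1.65 in V5 IP, with 1.69 and 1.65 in GFP IP. The tagged arrays lay above all controls. Over mock IP it rose by 0.87 and 0.92 (adjusted p = 0.0497 and 0.0357). The V5 value of Ago2 was close to the threshold, and it was lost without any 1 array other than mock array 2. Ago1 and Ago3 were not called.

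Against mock IP, the eIF3 subunits were the factor group with most lower calls. eIF3 is the scaffold on which the preinitiation complex assembles. Of 12 subunits, 1 was higher and 7 lower in V5 IP over mock IP, and 1 was higher and 8 lower in GFP IP. Of all genes, 14.6% were higher and 21.4% lower in the first comparison, and 16.3% and 26.5% in the second. Their median log2 fold change was -0.82 in V5 IP and -0.91 for GFP IP, beside -0.44 for all genes. The subunits called lower in V5 IP were Eif3b, Eif3c, Eif3d, Eif3f, Eif3g, Eif3k and Eif3l, and Eif3e was called in GFP IP in addition. Eif3h, Eif3i and Eif3j1 were not called in either.

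Eif3g, an RNA-binding subunit, had the lowest fold of the subunits over mock IP. Its level was 7.13 and 7.06 in input, 7.44 and 6.82 in mock IP, and 5.90 and 6.05 in V5 IP, with 5.69 and 5.87 in GFP IP. The mock arrays spanned the input arrays, and all 4 tagged arrays lay below them. Against mock IP its log2 fold was -1.15 ± 0.27 in V5 IP and -1.35 ± 0.27 for GFP IP (limma adjusted p = 0.022 and 0.0112), and over input -1.11 and -1.31, where Eif3c was lower still at -1.78 and -1.95. In V5 IP the call over mock IP was lost without V5 array 1, mock array 1 or either input array, and the GFP call without GFP array 1. All 5 probes of Eif3c were below 0 in both tagged IPs over mock IP, from -0.37 to -1.08 in V5 IP.

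Eif3a was the subunit called higher, and it encodes the large scaffold subunit. Its level was 4.18 and 4.28 in input, 4.30 and 4.33 in mock IP, and 5.10 and 5.03 in V5 IP, with 5.0 and 5.09 in GFP IP. The 4 tagged arrays lay within 0.10 of each other and above all 4 control arrays. Its difference from mock IP was 0.75 ± 0.21 in V5 IP and 0.73 ± 0.21 for GFP IP (limma adjusted p = 0.0333 and 0.0291). A second probe, well above background on all arrays, gave -0.09 and -0.74, and another, well above background on 3 arrays, gave 1.41 and 1.37. Neither passed. Eif3j1 was also above 0, at 0.63 and 0.56, without passing, and 1 of its other 2 probes was called higher at 1.12 and 1.09. The V5 call of Eif3a was lost without any 1 array other than mock array 2, at folds of 0.71 to 0.78, and the GFP call without either input array, mock array 1 or either GFP array.

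The eIF4 genes contained the largest fold over mock IP of any member in GFP IP. Eif4e encodes the protein that binds the mRNA cap. Its level was 2.55 and 2.40 in input, 1.05 and 1.53 in mock IP, and 4.50 and 3.82 in V5 IP, with 4.47 and 4.16 in GFP IP. The mock arrays were the lowest and the tagged arrays the highest, without overlap. Over mock IP, the log2 fold was 2.88 ± 0.31 in V5 IP and 3.03 ± 0.31 for GFP IP (limma adjusted p = 0.00221 and 0.00186). Over input it was 1.69 and 1.84 (adjusted p = 0.00841 and 0.00524). The next probe of Eif4e gave 1.06 and 1.14 over mock IP and 0.13 and 0.20 over input. The third kept probe, well above background on 2 arrays, gave -0.72 and -0.64 over mock IP, which did not pass, and was lower than input at -2.30 and -2.22. The probes of Eif4e thus differed in size and in direction.

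The relatives of eIF4E did not follow it. Eif4e2, a cap-binding protein linked to repression, had levels of 4.29 and 4.32 in input, 4.20 and 3.87 in mock IP, and 2.88 and 3.20 in V5 IP, with 2.78 and 3.11 in GFP IP. The tagged arrays were below all controls. Relative to mock IP, this gave a log2 fold of -0.99 ± 0.26 and -1.09 ± 0.26 (limma adjusted p = 0.0266 and 0.0159). Of its 4 kept probes 1 had the opposite sign, at 0.41 and 0.79. The V5 call was lost without V5 array 1, mock array 1 or either input array, and the GFP call without mock array 1 or GFP array 1. Eif4e3 had levels of -1.27 and -0.43 in input, -1.73 and -0.83 in mock IP, and -1.59 and -1.24 in V5 IP, with -0.93 and -0.47 in GFP IP. All its groups overlapped with mock IP, and its folds of -0.13 and 0.58 did not pass.

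Of the 4 genes for proteins that bind eIF4E, Eif4ebp1 was lower and the others were not called against mock IP. Eif4ebp1 encodes a repressor that competes with eIF4G for eIF4E. Its level was 6.38 and 6.15 in input, 7.34 and 6.82 in mock IP, and 6.17 and 6.01 in V5 IP, with 5.96 and 5.94 in GFP IP. The mock arrays were higher than all others, including input. Against mock IP its log2 fold was -0.99 ± 0.26 and -1.13 ± 0.26 (limma adjusted p = 0.0274 and 0.0151), and over input it was -0.18 and -0.31, which did not pass. Leaving out mock array 1 brought the folds over mock IP to -0.73 and -0.87, and neither passed. In V5 IP this call was also lost without either input or either V5 array, and the GFP call without either GFP array. Eif4ebp2, Eif4ebp3 and Eif4enif1 ranged from -0.80 to 0.42 over mock IP in the tagged IPs.

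The paralogs of the helicase eIF4A differed. Eif4a2 had levels of 5.88 and 5.56 in input, 5.64 and 5.37 in mock IP, and 7.51 and 6.42 in V5 IP, with 7.49 and 6.68 in GFP IP. Tagged IPs lay above both controls, with array 1 above array 2 by 1.09 in V5 IP and 0.81 for GFP IP. Its difference from mock IP was 1.46 ± 0.42 in V5 IP and 1.58 ± 0.42 for GFP IP (limma adjusted p = 0.0342 and 0.0224), and its second probe gave 1.69 and 1.85. Both calls were lost without either mock array, the V5 call also without V5 array 1 or either input array, and the GFP call without GFP array 1. Without V5 array 1 the V5 fold was 0.92. Eif4a1 had levels of 6.34 and 6.10 in input, 6.64 and 6.11 in mock IP, and 6.81 and 6.17 in V5 IP, with 6.97 and 6.27 in GFP IP. These overlapped, and the folds of 0.12 and 0.25 did not pass. Eif4b, a helper of the helicase, fell by 0.86 on the log2 scale in each tagged IP over mock IP (adjusted p = 0.0286 and 0.0232). Its other 2 kept probes gave -0.02 and -0.53 in V5 IP and 0.17 and -0.44 for GFP IP, and none of these passed.

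The scaffold eIF4G has 3 genes on the array. Eif4g2, which encodes the relative DAP5 that works without the cap-binding protein, had levels of 3.70 and 3.77 in input, 2.72 and 3.60 in mock IP, and 4.26 and 4.06 in V5 IP, with 4.15 and 4.18 in GFP IP. The 2 mock arrays differed by more than the tagged arrays did, and mock array 1 was the low one. Over mock IP, the log2 fold was 0.99 ± 0.31 and 1.0 ± 0.31 (limma adjusted p = 0.0434 and 0.0363). Without mock array 1 it was 0.55 and 0.56, and neither passed. Significance in V5 IP was lost without any 1 array other than mock array 2, and the GFP call also without either input or either GFP array. Its other 2 probes were also above 0, at 1.07 and 1.25 in V5 IP.

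Eif4g1 had levels of 2.44 and 2.50 in input, 3.83 and 2.80 in mock IP, and 3.05 and 2.40 in V5 IP, with 3.13 and 2.46 in GFP IP. Eif4g3 had levels of 2.45 and 2.59 in input, 1.95 and 2.34 in mock IP, and 1.62 and 2.22 in V5 IP, with 1.72 and 2.14 in GFP IP. Both overlapped with mock IP in the tagged IPs, and their folds of -0.59 and -0.22 in V5 IP did not pass.

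The eIF5 names cover unrelated proteins. Eif5 encodes the protein that triggers GTP hydrolysis by eIF2 at the start codon. Its level was 2.09 and 2.22 in input, 1.22 and 1.95 in mock IP, and 3.57 and 3.49 in V5 IP, with 3.48 and 3.61 in GFP IP. The 4 tagged arrays lay close together and above all controls. Relative to mock IP, this gave a log2 fold of 1.94 ± 0.29 and 1.96 ± 0.29 (limma adjusted p = 0.00508 and 0.00428), and over input 1.37 and 1.39 (adjusted p = 0.0129 and 0.0104). Its other 2 probes gave 1.83 and 0.94 in V5 IP.

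Eif5a2 encodes one of 2 forms of eIF5A, a factor that helps the ribosome past difficult peptide bonds. Its level was -0.36 and -0.45 in input, -0.76 and -0.16 in mock IP, and 2.68 and 2.18 in V5 IP, with 2.56 and 2.35 in GFP IP. Input and mock IP overlapped, and the tagged arrays were far above both. Against mock IP its log2 fold was 2.89 ± 0.30 in V5 IP and 2.91 ± 0.30 for GFP IP (limma adjusted p = 0.00212 and 0.00186), and over input 2.83 and 2.85 (adjusted p = 0.00207 and 0.0018). Its second probe gave 1.62 and 1.52 over mock IP. The levels of Eif5a, the other form, were 5.30 and 5.21 in input, 5.66 and 4.79 in mock IP, and 5.96 and 4.61 in V5 IP, with 6.13 and 4.96 in GFP IP. Within every IP group array 1 was above array 2, the groups overlapped, and the folds of 0.06 and 0.32 did not pass.

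Eif5b, which encodes the GTPase that joins the large subunit, had the lowest fold against input of all members. Its level was 3.05 and 3.34 in input, -0.66 and 0.67 in mock IP, and -1.62 and -0.19 in V5 IP, with -2.31 and -0.98 in GFP IP. All IPs, the IgG control included, lay far below input. The fold over input was -3.19 ± 0.65 in mock IP, -4.10 ± 0.65 in V5 IP and -4.84 ± 0.65 for GFP IP (limma adjusted p = 0.0313, 0.00497 and 0.00268). Against mock IP the folds of -0.91 and -1.65 did not pass (adjusted p = 0.283 and 0.0728). With the slide as a block these had adjusted p = 0.0334 and 0.00403, over a range of 0.0334 to 0.843 in V5 IP and 0.00403 to 0.336 for GFP IP for all settings tried. The difference on each slide was -0.96 and -0.86 in V5 IP and -1.65 and -1.65 for GFP IP. Of the 4 other probes of Eif5b, 3 were also lower than input in both tagged IPs, from -1.92 to -4.16 in V5 IP, and the fourth was at -0.27.

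**Figure D3:**
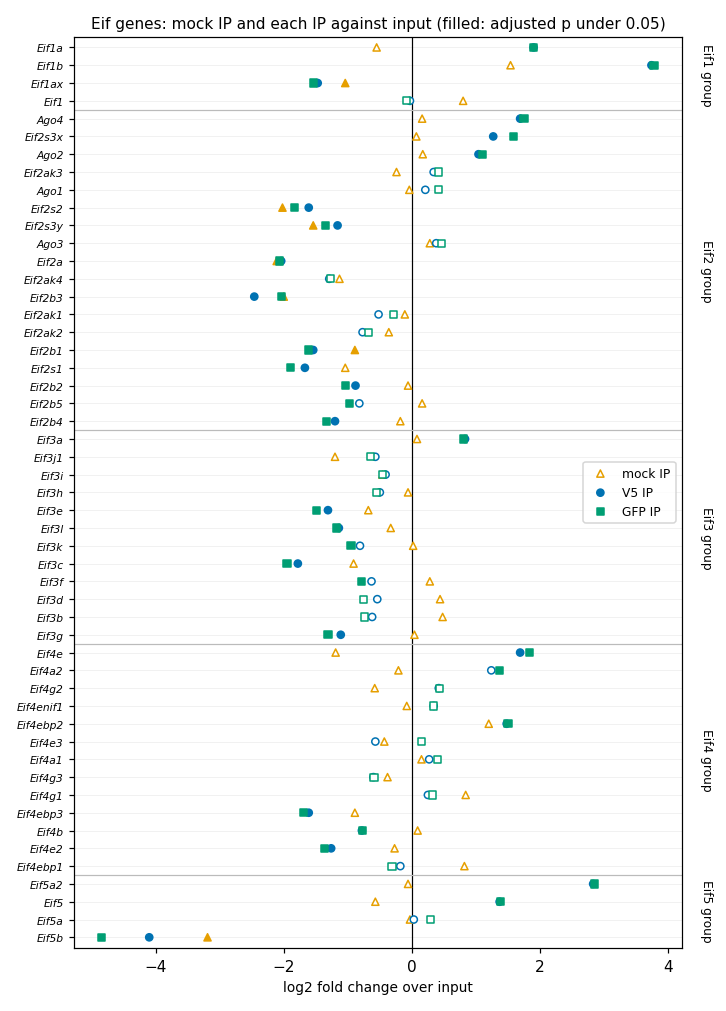
Log2 fold change over input (x axis) of the 51 Eif genes, in the same order as in the plot of folds over mock IP. Triangles are mock IP, circles V5 IP and squares GFP IP, and filled symbols passed an adjusted p under 0.05. Eif5b lies at -3.19 in mock IP, -4.10 in V5 IP and -4.84 for GFP IP, and Eif1b at 3.74 and 3.78 in the tagged IPs.

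Against input, V5 IP had 10 Eif genes higher and 17 lower, where 14.1% and 13.7% of all genes were. In GFP IP 11 were higher and 20 lower, against 16% and 16.8% of all genes. The median of the Eif genes was -0.57 in V5 IP and -0.59 for GFP IP, beside -0.11 for all genes in both. V5 IP had 2 genes higher and 3 lower than input without input array 1, 3 and 4 without input array 2, and 4 and 5 without V5 array 1. GFP IP had 6 and 5 without either input array or GFP array 1. Mock IP against input had 0 genes higher and 7 lower, against 6.63% and 4.03% of all genes, and with the slide as a block it had 4 higher and 14 lower, against 21.4% and 13.3%. The 7 lower genes were Eif1ax, Eif2s2, Eif2s3y, Eif2a, Eif2b1, Eif2b3 and Eif5b. By their brightest probes, these 7 were also lower than input in both tagged IPs, which share the input arrays. For these probes a lower level than input was seen with IgG as well. The second probes of Eif1ax and Eif2s2 were not called lower than input in the tagged IPs. Without input array 1, mock array 1 or input array 2, 0 genes were lower in mock IP, and without mock array 2 there were 2 higher and 10 lower.

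GFP IP against V5 IP had 0 of 51 genes higher and 0 lower by limma, and 0 with an unadjusted p under 0.05. Over all genes 0% were called. The differences ran from -0.74 for Eif5b to 0.72 for Eif4e3. These tests did not pair arrays by slide, although deviations of same-numbered arrays correlated at 0.78 between V5 IP and GFP IP. Spread between slides thus entered the SE, which was 0.65 for Eif5b and 0.41 for Eif4e3. By slide, Eif5b differed by -0.69 and -0.79, and Eif4e3 by 0.67 and 0.77. The sign was the same on both slides for 35 of 51 genes. With the slide as a block, 0 of 51 were higher and 0 lower. The lack of calls does not show that the IPs were equal.

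Of the 51 genes, 35 had more than 1 kept probe. In V5 IP against mock IP, 9 of these had probes on both sides of 0, and in GFP IP 11 had. Probes of 1 gene were called in both directions for 0 genes in V5 IP and for 1 for GFP IP, Ago4. Against input, 5 genes had calls in both directions in each tagged IP: Eif1ax, Eif2s3x, Eif3a, Eif4e and Eif4e2. With each of the 112 kept probes on its own, 22 were higher and 16 lower in V5 IP over mock IP, against 15.3% and 17.1% of all probes. In GFP IP 26 were higher and 22 lower, against 17.1% and 22.5%.

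**Figure D4:**
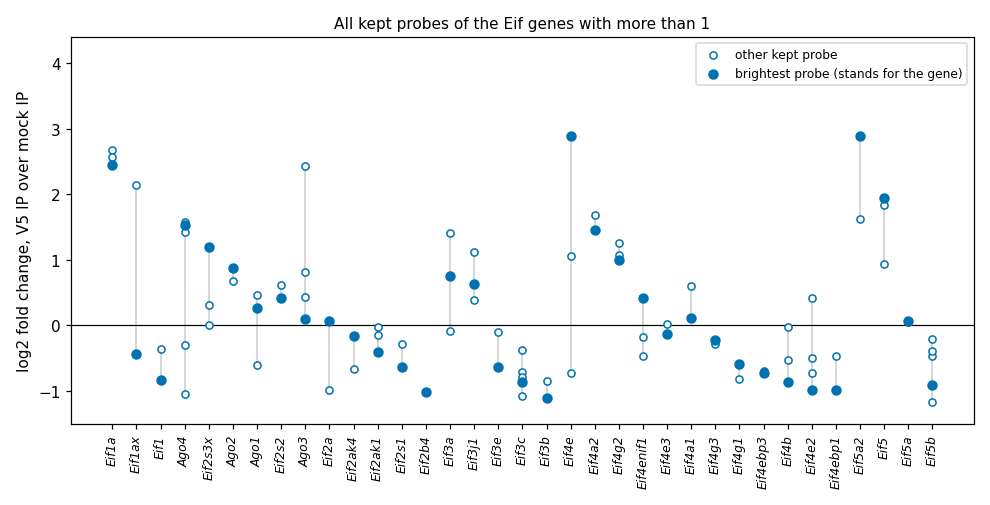
Log2 fold change of V5 IP over mock IP (y axis) for all kept probes of the 35 Eif genes with more than 1. Filled circles are the brightest probe, which stands for the gene in the counts, open circles are the other kept probes, and lines join the probes of a gene. The probes of Eif1a lie together at 2.45 to 2.68, whereas those of Eif1ax lie at -0.44 and 2.14.

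Sequences at the transcript start were read to see what members share that the arrays did not measure. Many mRNAs of the translation machinery begin with a C and a run of pyrimidines, the terminal oligopyrimidine tract. The tract was searched as a C followed by at least 4 bases that are C or T, on the transcript strand, beginning within 5 bases of a start annotated by RefSeq. Where several such Cs qualified, the tract was taken from the one nearest the annotated start. Of 41 Eif genes with a window in the RefSeq promoter table, 13 held it, or 31.7%, beside 22.9% of 12586 tested genes. It was found in 2 of 8 Eif genes higher in both tagged IPs over mock IP, in 5 of 13 lower in both and in 6 of 20 others. The windows below run from 20 bases before the annotated start to 20 bases from it on, 5′ to 3′ in GRCm38.p6, with the tract in capitals. The first pair is the gamma subunit of eIF2 on the X and Y chromosomes. The other 4 are eIF3 subunits that were lower, of which Eif3g has no tract. Eif3c, Eif3d and Eif3k were also lower in both tagged IPs, held no tract and are not shown. Of 9 eIF3 subunits with a window, 3 held a tract.
Eif2s3x, chrX:94212632-94212671, minus strand: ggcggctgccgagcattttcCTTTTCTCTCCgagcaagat
Eif2s3y, chrY:1010575-1010614, plus strand: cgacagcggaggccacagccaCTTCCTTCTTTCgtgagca
Eif3f, chr7:108934395-108934434, plus strand: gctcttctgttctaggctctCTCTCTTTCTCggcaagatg
Eif3b, chr5:140419285-140419324, plus strand: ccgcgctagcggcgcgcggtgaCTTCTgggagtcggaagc
Eif3l, chr15:79075203-79075242, plus strand: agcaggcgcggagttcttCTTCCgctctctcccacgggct
Eif3g, chr9:20898571-20898610, minus strand: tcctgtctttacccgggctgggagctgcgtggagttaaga

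Counted from the qualifying C nearest the start, Eif2s3x and Eif2s3y both held a tract, of 11 and 12 bases. A difference between their folds was not tested. Counted in the same way, the tract of Eif3f had 11 bases, and those of Eif3b and Eif3l had 5 each. In Eif2s3x, Eif3f and Eif3l the run of pyrimidines also extends before the capitals, and those bases are not in the lengths. A match is a description of these letters only.

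Other genes of translation were taken from lists, which were also chosen with earlier results of these data known. They are to be read beside all genes, of which 14.6% were higher and 21.4% lower in V5 IP over mock IP and 16.3% and 26.5% in GFP IP. Of 29 cofactors and regulators of initiation not named Eif, 10 were higher and 6 lower in V5 IP over mock IP, and 11 and 7 in GFP IP, with medians of -0.04 and 0.05. The highest was Paip1, which bridges the poly(A)-binding protein and the initiation factors, at 3.09 ± 0.29 and 3.02 ± 0.29 (limma adjusted p = 0.00212 and 0.00183). The lowest was Ppp1r15a, a stress-induced phosphatase subunit that reverses eIF2 alpha phosphorylation, at -1.07 ± 0.22 and -1.10 ± 0.22 (adjusted p = 0.0173 and 0.0119). Of 8 genes tested from the list of elongation factors, 1 was higher and 5 lower in each tagged IP. The higher one was Eef1e1, at 3.09 and 3.22, which encodes a subunit of the synthetase complex rather than an elongation factor. The lowest was Eefsec, the selenocysteine factor, at -1.26 and -1.34. Of 5 termination and rescue factors, 1 was higher in each, the release factor Etf1, at 1.51 and 1.72. The lowest of them was Hbs1l, at -0.50 and -0.45. Of 9 mitochondrial translation factors, 0 were higher and 4 lower in each tagged IP by limma, with Tufm, the mitochondrial elongation factor, at -1.16 and -1.31. Tsfm was the highest of them, at 0.48 and 0.61.

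Markers of the cell types moved in the same comparisons. Of 8 germ-cell markers 4 were higher and 1 lower over mock IP in each tagged IP, with Kit at 3.25 and 3.39 and Nanos3 at -0.85 and -0.84. Of 5 pluripotency markers 3 were higher and 0 lower, with Sox2 at 2.86 and 2.84 and Pou5f1 at -0.70 and -0.74. Of 5 fibroblast markers 0 were higher and 2 lower, from Col1a1 at -1.41 and -1.55 to Pdgfra at 0.10 and 0.31. With the slide as a block, 6 (V5 IP) and 7 (GFP IP) germ-cell markers were higher, 2 and 1 pluripotency markers were lower, and 4 fibroblast markers were lower in each. The block added calls across the array too. Of the 19032 genes tested, it called 7311 lower for V5 IP and 7645 for GFP IP, beside 4065 and 5043 without it. Its higher calls numbered 3693 and 3969, beside 2776 and 3102. On the log2 scale the summed level of the fibroblast markers was 3.26 to 3.52 in input, 3.1 to 4.33 in mock IP, 2.28 to 2.67 in V5 IP and 2.20 to 2.50 for GFP IP, and no marker was below background. The sum is led by the brightest probes, such as those of Col1a1 and Col1a2 at 2.98 and 2.68 on mock array 1. It is not a measure of the amount of fibroblast RNA. The part of these cell types in the values of the Eif genes was not tested.

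Several initiation factors are on the array under names outside the rule, and they were added after their values were seen. Eif6, which keeps ribosomal subunits apart, is filed as Itgb4bp and was lower over mock IP, at -1.28 ± 0.27 in V5 IP and -1.41 ± 0.27 for GFP IP (limma adjusted p = 0.018 and 0.0101). Eif4h, a helper of the helicase, and Eif2d, a tRNA carrier, were also lower in both, at -0.83 and -0.92 in V5 IP. Eif4a3, a helicase of the exon junction complex filed as Ddx48, was at -0.68 in V5 IP, which did not pass, and was lower in GFP IP at -0.73. The eIF3 subunit gene Eif3m was not called, at -0.35 and -0.47, nor was Eif1ad, at -0.10 and 0.06.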

How the data were processed

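Per the labels, RNA of 8 samples was hybridised to one-colour arrays, and per the file headers the scans were quantified by Feature Extraction 9.1.3.1 (Agilent). The deposited processed intensity is background-subtracted and detrended, per the file headers. The authors' deposited table of the series holds background-subtracted signal scaled to the array median. The deposited quality score in it was used to find which spot each value came from.

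Processed intensities were log2-transformed and set to the 75th percentile of each array. Outlier spots were left out and spots of a probe averaged. A probe had to be well above background on both arrays of some group (28104 of 41174 were), and the brightest kept probe stood for a gene. All 8 arrays entered 1 linear model in limma 3.58.1 (lmFit, eBayes; R 4.3.3). Benjamini-Hochberg adjustment of the two-sided p-values ran over 19032 genes, and a call is an adjusted p under 0.05. The scripts were tested on simulated data. Gene names came from RefSeq (GRCm38.p6): 22951 probes matched by accession, 6659 had a current symbol, 3096 a synonym, and 8468 kept the file's name. Promoter windows are RefSeq's. No genome build of the arrays' annotation was used.

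Described in full by rule were Eif1b, Eif5b, the highest and lowest gene of each factor group by the mean fold of both IPs over mock IP, paralog sets, the extremes of each list, and Dazl as the check of the IP. The values of Ago2 and Eif5 on every array were given outside this rule, and both were genes called higher. The members and lists were chosen with earlier results of these data known. Replicate numbers mark the slide in the file headers, and deviations of same-numbered arrays correlated at 0.30 to 0.78 between groups. Alternatives were normexp background correction, the authors' table as log2(signal + 0.1), quantile normalization, median centring, no filter, mean of probes, only the groups compared, the slide as a block and leaving out each array.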

Additional observations from a re-analysis of the deposited data

How the results depend on the processing

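Counts are of the 51 Eif genes at an adjusted p under 0.05, higher then lower, against the main counts of 11 and 14 (V5 over mock IP), 11 and 16 (GFP over mock IP), 10 and 17 (V5 over input), 11 and 20 (GFP over input) and 0 and 7 (mock over input). The cause of each change was not tested. The share of all genes called under each setting is not given here, so a change cannot be read as particular to the Eif genes. With normexp they were 5 and 0, 6 and 2, 5 and 4, 5 and 5, and 0 and 0. With the authors' deposited table the lower counts over mock IP were 3 (V5) and 10 (GFP), and mock over input had 11 lower. Median centring gave 3 and 10 lower over mock IP. With no filter V5 over mock IP had 7 and 1, and mock over input 0 lower. With the mean of all kept probes V5 over mock IP had 9 lower, and both IPs over input had 6 higher. With only the groups compared, and so fewer arrays, V5 over mock IP had 7 and 0, GFP over mock IP 8 lower and mock over input 0 lower. Quantile normalization gave 1 higher in mock over input. The replicate block by slide gave 4 higher and 14 lower in mock over input; it moved no other count by over 1.5 times. Leaving out 1 array gave 4 to 12 higher and 0 to 14 lower in V5 over mock IP, 4 to 12 and 0 to 17 in GFP over mock IP, 2 to 9 and 3 to 19 in V5 over input, 6 to 11 and 5 to 23 in GFP over input, 0 to 2 and 0 to 10 in mock over input, and 0 and 0 in GFP over V5 IP. Where this left a group with 1 array, that array was assumed to vary like the other groups. Folds over mock IP and input under an alternative were computed for the Eif genes that the rule for full description takes and not for all 51. Of these, 1171 kept their side of the threshold, 218 lost the call and 12 gained one. Another 7 turned, which counts a change of sign only where the main or the alternative fit gave a call. A change of sign without a call in either fit is counted among the 1171. The 7 that turned did so with the mean of all kept probes and were Eif1ax over mock IP (0.85 in V5, 0.98 in GFP), Eif2s3x over input (-0.32, -0.22), Eif4e over input (-0.16, -0.06) and Eif3a in GFP over input (-0.04). With 2 arrays a group, precision is limited by their number.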
